A study of Mus musculus with 4 samples.

Results

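The AMPA receptor is the glutamate receptor that carries most fast excitatory transmission in the brain, and the 10 genes described here encode its 4 pore subunits (Gria1, Gria2, Gria3 and Gria4) and 6 of its auxiliary subunits (Cacng2, Cacng3, Cacng8, Shisa9, Gsg1l and Cnih2). They were taken by symbol from the 32285 genes counted in nuclei of mouse hippocampus, and all 10 were found. The study compared 2 groups of mice of the same genotype, ArcCreERT2::eYFPflx, in which an inducible Cre under the Arc promoter switches on a floxed eYFP reporter. The trained group had learned active place avoidance, a task in which a mouse must keep out of a shock sector, and the untrained group had not. Tissue was taken 3 days after a memory retention test, with no recall session in between, so the comparison between groups addresses how transcripts differ while a memory is held. Each group has 2 libraries from 2 mice. The labels do not tie a library to a mouse, so p-values for training measure the spread between these 4 libraries, which may be in part technical. Age is not given in the sources used here, and nuclei carrying the eYFP tag were not analysed separately.

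The subunits assemble as tetramers, whose makeup sets conductance, calcium entry and trafficking. Gria2 is the subunit whose transcript is edited at the Q/R site of the pore, which makes the channel nearly impermeable to calcium. Gria1 and Gria2 are the main subunits known from hippocampal pyramidal cells, and receptors rich in Gria4 are known from fast-spiking interneurons and thalamus. Auxiliary subunits bind the tetramer in the membrane. Cacng2 (stargazin), Cacng3 and Cacng8 are TARPs, which bring receptors to the synapse and slow their closing; Cnih2 is a cornichon, which aids export and also slows closing; Shisa9 (CKAMP44) is known from dentate granule cells, where it slows recovery from desensitisation; Gsg1l is known to reduce the receptor's responses.

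The stretch of coding sequence around the Q/R site is shown first, because Gria2 is set apart from its paralogs there by editing of the RNA and not by the gene. Each line holds 51 bases, 5′ to 3′, of the principal transcript in GENCODE vM21 (GRCm38), read from the transcript file, and capitals mark the codon that editing changes in Gria2.
Gria1: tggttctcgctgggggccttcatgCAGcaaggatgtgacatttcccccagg
Gria2: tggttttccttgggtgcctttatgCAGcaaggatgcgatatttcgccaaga
Gria3: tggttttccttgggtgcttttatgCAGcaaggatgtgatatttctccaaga
Gria4: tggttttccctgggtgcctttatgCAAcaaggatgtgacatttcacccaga
The codon is CAG in Gria1, Gria2 and Gria3 and CAA in Gria4, both for glutamine. Over these 51 bases Gria2 differed from Gria3 at 3 bases, from Gria4 at 6 and from Gria1 at 10. Counts per gene do not show whether a transcript was edited.

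The ends of the coding sequences are shown because most of them carry the PDZ-binding tails through which receptors and TARPs reach the scaffolds described further on. Each line is the last 36 bases before the stop codon in the same annotation, with the last 12 bases in capitals. In Gria1, Gria2, Gria3 and the TARPs the capitals are the bases of the PDZ ligand.
Gria1: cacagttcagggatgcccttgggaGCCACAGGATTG
Gria2: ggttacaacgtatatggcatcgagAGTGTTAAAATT
Gria3: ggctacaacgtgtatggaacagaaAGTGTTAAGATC
Gria4: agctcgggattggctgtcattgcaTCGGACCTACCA
Cacng2: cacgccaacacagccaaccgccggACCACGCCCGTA
Cacng3: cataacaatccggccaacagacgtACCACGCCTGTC
Cacng8: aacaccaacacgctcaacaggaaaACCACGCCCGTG
Gria2 and Gria3, whose tails bind Grip1 and Pick1, differed at 2 of the last 12 bases, whereas Gria2 differed from Gria1 and from Gria4 at 10. The 3 TARPs, whose tails bind Dlg4 (PSD-95), differed from each other at 1 or 2 of these bases. Gria4 is represented by its long form here, and its capitals mark the position only. The counts are per gene and do not separate forms.

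Barcodes of at least 600 unique molecular identifiers (UMIs, 1 per captured molecule) numbered 47110, from 6019 to 16916 per library, and libraries differed in depth: the median was 736 UMIs in Trained replicate 1, 887 in Trained replicate 2, 957.5 in Untrained replicate 1 and 1079 in Untrained replicate 2. Both trained libraries had a lower median than both untrained ones, so depth and training cannot be told apart by design. Between 17 and 65 barcode sequences were shared by any pair of libraries. Of these barcodes, 34332 (72.9%) were placed in a cell class from marker genes and a profile of other genes, with none of the genes described here in the profile. Results are given for 9 classes with at least 30 barcodes in every library: 7702 dentate granule, 8132 CA1 pyramidal, 3404 CA3 pyramidal, 2117 thalamic excitatory, 4191 cortical excitatory, 3915 inhibitory, 1327 oligodendrocyte, 1690 astrocyte and 309 ependymal barcodes. Of the thalamic class, 98.0% fell in the cluster of that name, which was named by the same markers. The thalamic markers summed to 5530 CPM in this class, but the inhibitory markers also summed to 3634 CPM. In inhibitory neurons the inhibitory markers summed to 9166 CPM. Whether the class is thalamic tissue was not tested. The cortical class is the least certain. A clustering of the same barcodes, named by the same markers, left 85.1% of them in unnamed clusters. The cortical markers summed to 2930 CPM in this class, but also to 2068 CPM in CA3 pyramidal nuclei. Whether the class is cortical tissue was not tested. Microglia, endothelial cells and oligodendrocyte precursors are not described, because 56.6%, 66.5% and 56.5% of their barcodes lay near the limit of the class rule, and microglia also had only 20 barcodes in 1 library. Neuronal transcripts were found in glial classes: in the astrocyte class the 7 CA1 markers summed to 837 to 1425 CPM (the depth-scaled UMI count, taken over all UMIs of the class in that library), with none of them at 0 in any library. For this reason the CPM of each gene is given beside that in low-UMI barcodes, which lie near or below the most common UMI count of their library; what these barcodes hold was not tested.

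Gria1 was highest in the 3 principal cell classes of the hippocampus. In CA1 pyramidal nuclei it stood at 3014 and 3347 CPM in the trained libraries and 3048 and 3782 CPM in the untrained ones, a mean of 3298 ± 356 (SD, n = 4). CA3 pyramidal nuclei had 2600, 2850, 2555 and 3141 CPM and dentate granule nuclei 2535, 2780, 2348 and 2880 CPM, in the same order of libraries. CA3 overlapped both other classes, CA1 lay above dentate granule nuclei in every library, and all 3 lay above the inhibitory neurons, at 2236, 1991, 1747 and 1649 CPM. The remaining classes had means from 777 (thalamic) to 1159 CPM (astrocyte), beside 740 ± 126 CPM in low-UMI barcodes, and overlapped their neighbours in this order. Against the mean of the 3 principal classes, thalamic nuclei were 3.63-fold lower (log2 difference -1.86 ± 0.12 SE, edgeR adjusted p = 3.57e-24) and cortical nuclei 3.19-fold lower.

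Gria2, the edited subunit, was also highest in the 3 principal classes, which overlapped one another. Its level was 2509, 3041, 2905 and 2614 CPM in CA3 pyramidal, 2378, 2830, 2800 and 2516 in CA1 pyramidal and 2327, 2590, 2381 and 2314 in dentate granule nuclei. Among the other neuron classes, cortical nuclei followed at 2062 ± 66.6 CPM and inhibitory neurons at 1542 ± 53.8 CPM. The astrocyte mean lay between those of cortical and inhibitory nuclei. Thalamic nuclei had the lowest level of any class, 973 ± 110 CPM. Low-UMI barcodes held 1662 ± 165 CPM of Gria2, so the mean levels in inhibitory, thalamic, oligodendrocyte (1507 CPM) and ependymal (1046 CPM) barcodes were below that of the low-UMI barcodes.

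Gria3 was highest in CA1 pyramidal (1141, 1184, 981 and 924 CPM) and cortical nuclei (884, 1118, 969 and 961 CPM), which overlap. CA3 pyramidal, dentate granule, inhibitory and thalamic nuclei followed at means of 722 to 825 CPM, each overlapping the next. The 3 classes that are not neurons had 434 to 491 CPM, close to the 489 ± 63.4 CPM of low-UMI barcodes.

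Gria4 was highest outside the principal classes. Inhibitory neurons had 1262, 1267, 1082 and 1213 CPM and thalamic nuclei 1043, 1218, 1058 and 1272 CPM; both classes overlap, and they lie above every other class in all 4 libraries. Cortical nuclei had 440 ± 42.7 CPM and CA3 pyramidal nuclei 242 ± 29.2. Dentate granule nuclei (188 ± 25.1 CPM) and CA1 pyramidal nuclei (135 ± 43.4 CPM) were near low-UMI barcodes, 175 ± 32.9 CPM. Gria4 was 6.31-fold higher in inhibitory neurons than in the mean of the principal classes (log2 difference 2.66 ± 0.09 SE, edgeR adjusted p = 6.43e-44) and 6.70-fold higher in thalamic nuclei (2.74 ± 0.09).

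**Figure D1:**
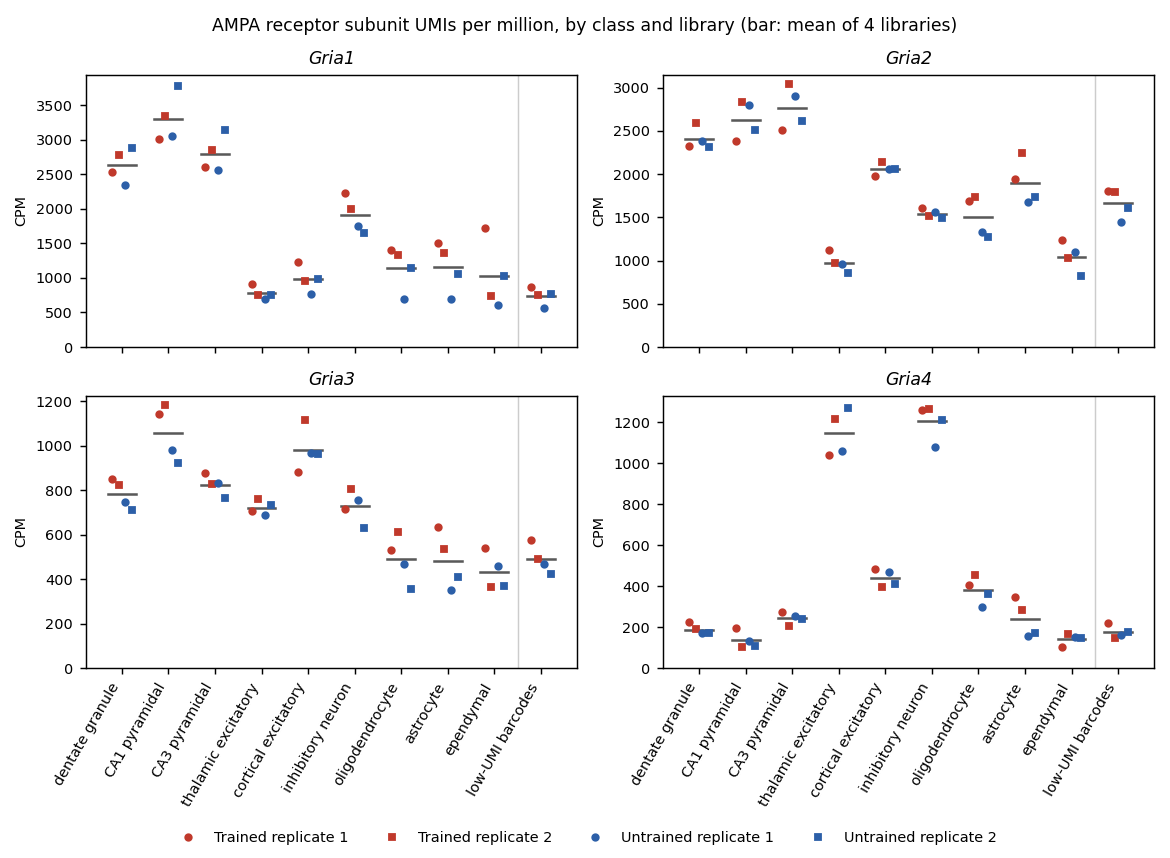
CPM of Gria1, Gria2, Gria3 and Gria4 on the vertical axes, by class on the horizontal axes, with a point per library, a bar for the mean of 4 libraries, and the low-UMI barcodes at the right of each panel. Gria1 peaks in CA1 pyramidal nuclei at 3014 to 3782 CPM, whereas Gria4 peaks in inhibitory and thalamic nuclei at 1043 to 1272 CPM.

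The mix of subunits within a class followed from these levels. UMIs of long genes are over-represented in nuclei, so a share is compared here between classes and not between genes. Gria4 made up 1.92% ± 0.71 (SD, n = 4 libraries) of the UMIs of the 4 subunits in CA1 pyramidal, 3.13% ± 0.43 in dentate granule and 3.68% ± 0.60 in CA3 pyramidal nuclei. In inhibitory neurons the share of Gria4 was 22.4% ± 1.46 and in thalamic nuclei 31.7% ± 3.24, with no overlap with any other class. Gria2 took 26.9% ± 2.59 in thalamic and 28.7% ± 1.60 in inhibitory nuclei. In CA1 pyramidal, dentate granule and CA3 pyramidal nuclei Gria2 took 36.9% to 41.8% on average, and in cortical nuclei 46.2% ± 2.13. No library of the thalamic or inhibitory class reached the lowest Gria2 share of another neuron class, 34.3%.

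The TARPs divided the neurons in different ways. Cacng8, the TARP best known from hippocampal pyramidal cells, was highest in CA1 pyramidal nuclei at 171, 138, 143 and 177 CPM. CA3 pyramidal (121 ± 19.0 CPM) and dentate granule nuclei (110 ± 15.2 CPM) followed, each overlapping the class above, and thalamic nuclei were lowest at 23.6, 22.8, 26.8 and 33.1 CPM, below the 45.2 ± 9.48 CPM of low-UMI barcodes. The thalamic level was 4.55-fold below that of the principal classes (log2 difference -2.19 ± 0.15 SE, edgeR adjusted p = 2.25e-23).

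Cacng2, the stargazin gene, was lower in CA1 than in CA3 pyramidal nuclei. It had 144, 126, 120 and 138 CPM in inhibitory neurons, 122 ± 14.5 in thalamic nuclei and 103 ± 11.1 in CA3 pyramidal nuclei, against 54.4, 41.6, 57.0 and 42.4 CPM in CA1 pyramidal nuclei. Every CA3 library was above every CA1 library, and the difference was 2.25-fold (log2 1.17 ± 0.13 SE, edgeR adjusted p = 1.65e-12). Low-UMI barcodes held 92.6 ± 5.21 CPM of Cacng2, more than CA1 pyramidal, dentate granule and glial barcodes.

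Cacng3 was highest in cortical nuclei at 138, 132, 113 and 161 CPM. CA1 pyramidal nuclei had 96.3 ± 17.9 CPM, dentate granule nuclei 85.9 ± 7.38 and inhibitory neurons 81.2 ± 6.91, while thalamic nuclei (41.3 ± 8.24 CPM) were near low-UMI barcodes (48.3 ± 3.0 CPM).

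Shisa9 divided dentate granule from pyramidal nuclei. Dentate granule nuclei had 620, 635, 575 and 640 CPM, whereas CA1 pyramidal nuclei had 154, 68.7, 93.4 and 96.7 and CA3 pyramidal nuclei 120, 79.1, 72.1 and 126. The pyramidal classes were thus at the level of low-UMI barcodes (95.9 ± 27.9 CPM), and CA1 lay 6.05-fold below dentate granule nuclei (log2 difference -2.60 ± 0.13 SE, edgeR adjusted p = 3.58e-32). The class highest in Shisa9 was thalamic, at 686, 720, 645 and 694 CPM, each library above the highest of the dentate granule libraries. Inhibitory neurons were intermediate at 347 ± 56.3 CPM, and the library values of neither neighbour in the order overlapped theirs.

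Gsg1l had few UMIs (2230 in all) but separated the principal classes as well. Dentate granule nuclei had 83.8, 64.5, 85.0 and 87.0 CPM, cortical nuclei 63.4 ± 5.02, CA1 pyramidal nuclei 26.6 ± 5.87 and CA3 pyramidal nuclei 19.7, 6.68, 12.6 and 8.09 CPM, the last from 46 UMIs. CA3 lay 6.91-fold below dentate granule nuclei (log2 difference -2.79 ± 0.19 SE, edgeR adjusted p = 4.17e-23). In the low-UMI barcodes Gsg1l stood at 20.99 ± 3.85 CPM.

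Cnih2 was the exception among the 10 genes. Its mean in every class, from 54.4 CPM in thalamic to 91.4 CPM in ependymal barcodes, was 0.264 to 0.443 times the 206 ± 31.4 CPM of low-UMI barcodes, and neighbouring classes overlapped throughout. No difference in Cnih2 among CA1, CA3 and dentate granule nuclei passed the test, but some alternatives called it. With Leiden clusters in place of the class rule it was lower in CA3 than in CA1 (log2 -0.32 ± 0.12 SE) and in dentate granule nuclei (-0.34 ± 0.12). The latter difference was also called with the stricter class rule (-0.32 ± 0.13) and without Untrained replicate 1 (-0.45 ± 0.15).

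**Figure D2:**
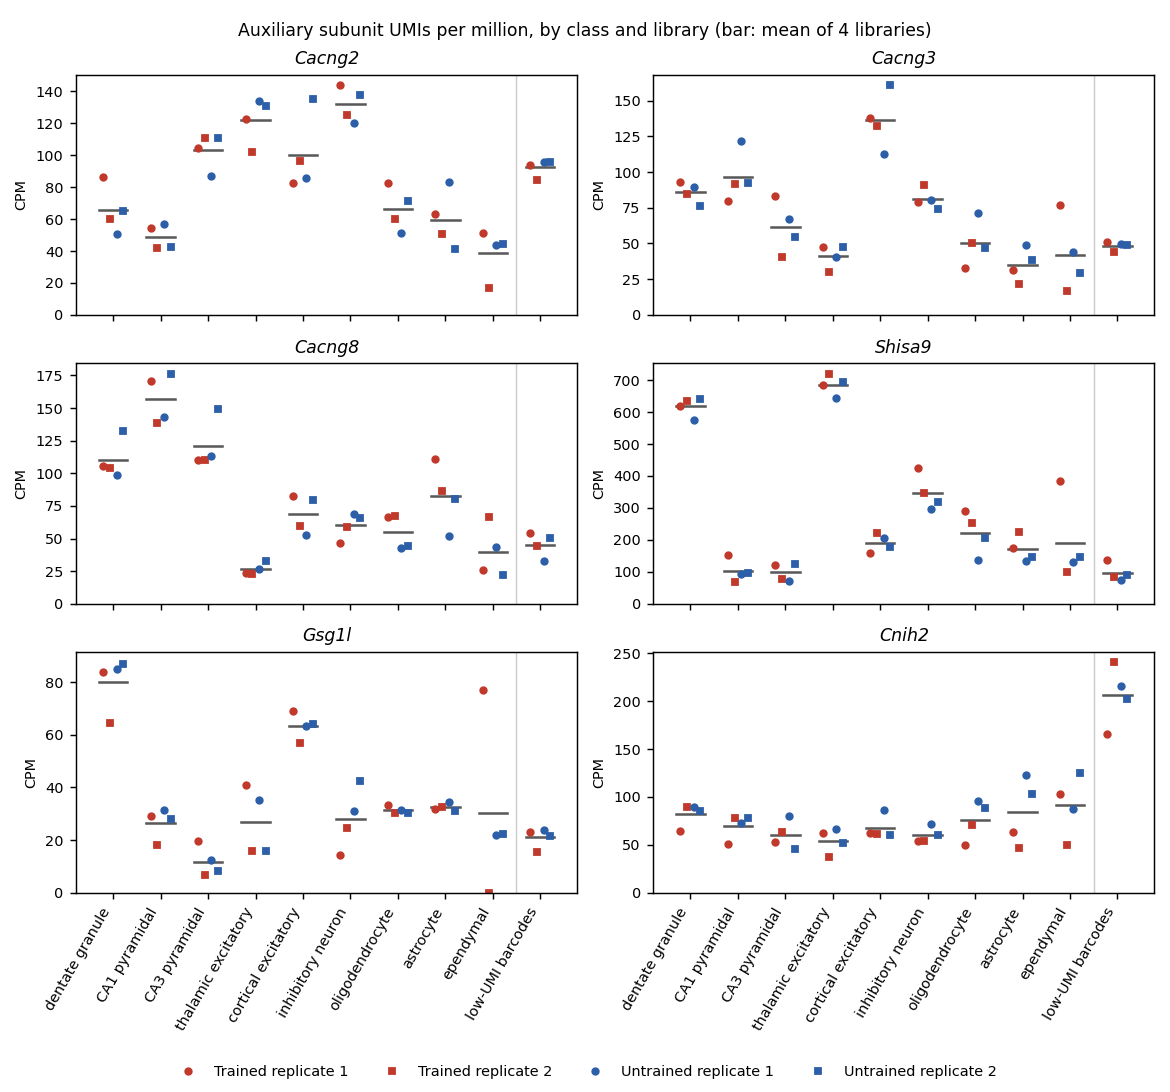
CPM of the 6 auxiliary subunit genes on the vertical axes, by class on the horizontal axes, with a point per library, a bar for the mean of 4 libraries, and low-UMI barcodes at the right. Shisa9 stands out in dentate granule (575 to 640 CPM) and thalamic nuclei (645 to 720 CPM), and Cnih2 is the gene whose low-UMI level (166 to 241 CPM) is above all classes.

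Differences between classes were tested with edgeR on UMIs summed per class and library, with the library as a block (11366 genes tested, all 10 members among them; adjusted p is over all of them, by the Benjamini-Hochberg method). The classes were drawn from other genes of the same barcodes, so these p-values speak of classes as defined here. With the library as a block, they measure how differences between classes vary from library to library, not the spread between libraries or mice. Between CA1 pyramidal and dentate granule nuclei 7 of the 10 passed, beside 26.8% of all genes. Cacng3, Cacng8, Gria1 and Gria3 were higher in CA1 (14.6% of all genes were), and Gria4, Gsg1l and Shisa9 lower (12.2%). Between CA3 and CA1 pyramidal nuclei 6 passed, beside 21.6% of all genes, with Cacng2 (log2 1.17) and Gria4 (0.98 ± 0.13 SE) higher in CA3 (12.1% of all genes) and Cacng3, Cacng8, Gria3 and Gsg1l lower (9.49%). Between CA3 pyramidal and dentate granule nuclei 7 passed, beside 34.7% of all genes. Cacng2, Cacng8, Gria2 and Gria4 were higher in CA3 (18.4% of all genes), and Cacng3, Gsg1l and Shisa9 lower (16.3%). The differences of Gria3 and Cacng8 between CA3 and CA1 (-0.30 ± 0.11 and -0.29 ± 0.10) lost their call in 5 and 7 of 12 alternative analyses, and that of Cacng8 between CA3 and dentate granule nuclei (0.28 ± 0.10) in 9. Single libraries also decided smaller calls: between CA1 and dentate granule nuclei, Gria1 was no longer called without Untrained replicate 2 (0.40), Cacng3 without Untrained replicate 1 (0.23) or 2 (0.33), and Gria4 without Trained replicate 2 (-0.31) or Untrained replicate 2 (-0.39). Between CA3 and dentate granule nuclei, Gria2 was not called without Trained replicate 2 (0.34) or Untrained replicate 1 (0.31), nor Cacng3 without Trained replicate 2 (-0.20), and with at least 1000 UMIs Gria4 was not called (0.31).

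Inhibitory neurons against the mean of the principal classes had 8 of 10 members past the test, beside 32.1% of all genes (16.9% higher and 15.2% lower). Gria4, Cacng2 (log2 0.84 ± 0.10 SE) and Shisa9 (0.82 ± 0.10) were higher, and Gria1 (-0.71 ± 0.11), Gria2 (-0.85 ± 0.10), Gria3 (-0.37 ± 0.09), Cacng8 (-1.12 ± 0.10) and Cnih2 (-0.37 ± 0.12) lower. The contrasts of thalamic and cortical nuclei were added after the data were seen. Thalamic nuclei had 9 of 10 past it, beside 36.9% of all genes (19.6% higher and 17.3% lower), with Gria4, Shisa9 (1.98 ± 0.10) and Cacng2 (0.92 ± 0.12) higher and the other 6 lower, Gsg1l being the gene that did not pass. Cortical nuclei had 7 of 10, beside 23.8% of all genes (12% higher and 11.8% lower): Gria4 (1.24 ± 0.10), Gsg1l (1.06 ± 0.14), Cacng3 (0.70 ± 0.10) and Cacng2 (0.56 ± 0.11) were higher, and Gria1 (-1.67 ± 0.12), Cacng8 (-1.07 ± 0.10) and Gria2 (-0.41 ± 0.09) lower. The calls of Cnih2 in inhibitory and thalamic nuclei and of Gria3 in thalamic nuclei were lost in 5 or 6 of 12 alternative analyses, and that of Cacng2 in cortical nuclei without Untrained replicate 2 (0.34 ± 0.13). With Leiden clusters Gria3 was not called in inhibitory neurons (-0.18 ± 0.09).

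Oligodendrocytes had 6 of 10 members past the test against the principal classes, beside 32.4% of all genes (17.4% higher and 15% lower): Gria1, Gria2, Gria3, Cacng3 and Cacng8 were lower, and Gria4 was 1.84-fold higher (log2 0.88 ± 0.12 SE, edgeR adjusted p = 6.49e-09), at 406, 453, 299 and 360 CPM. With at least 1000 UMIs Cacng3 was no longer called (log2 -0.20 ± 0.20, against -0.71 ± 0.19). All 4 oligodendrocyte libraries were above the Gria4 level of every low-UMI profile (145 to 221 CPM). Astrocytes had 5 of 10, beside 42.2% of all genes (23.3% higher and 18.9% lower), and all 5 were lower: Gria1, Gria2, Gria3, Cacng3 and Cacng8. In both glial classes Gria1 was 1.54 to 1.57 times its level in low-UMI barcodes. The summed CA1 markers were 837 to 1425 CPM in astrocytes and 1557 to 2545 CPM in oligodendrocytes. Much of the oligodendrocyte sum was Pex5l, at 878 to 1351 CPM beside 1589 to 2033 CPM in CA1 pyramidal nuclei. Galntl6 stood at 413 to 953 CPM in oligodendrocytes beside 4490 to 4785 CPM in CA1 pyramidal nuclei. The markers of inhibitory neurons, a class high in Gria4, summed in oligodendrocytes to 1506 to 2015 CPM, beside 8383 to 10345 CPM in inhibitory neurons. Those of thalamic nuclei, also high in Gria4, summed to 592 to 864 CPM, beside 5086 to 5840 CPM in thalamic nuclei. The part of neuronal RNA in these glial levels was not tested.

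**Figure D3:**
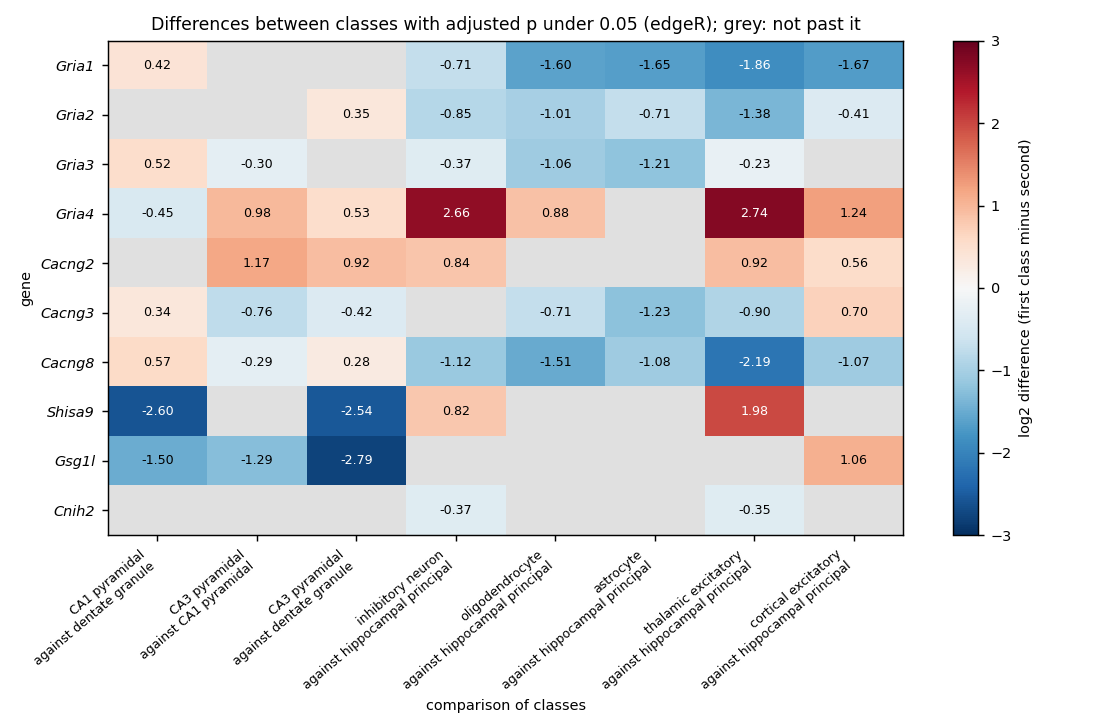
Log2 differences of the 10 genes (vertical axis) between classes (horizontal axis) as colour and number where the edgeR adjusted p was under 0.05; grey cells did not pass it. Red is higher in the first class named. The reddest cells are Gria4 in inhibitory (2.66) and thalamic nuclei (2.74), and the bluest are Gsg1l in CA3 pyramidal (-2.79) and Shisa9 in CA1 pyramidal nuclei (-2.60), both against dentate granule nuclei.

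Of 9 other auxiliary subunit genes (Cacng4, Cacng5, Cacng7, Cnih3, Shisa6, Shisa7, Shisa8, Prrt1 and Syndig1), 8 were tested, and Shisa8 fell under the count filter. In CA1 against dentate granule nuclei 2 were higher and 2 lower, beside 26.8% of all genes, with a median log2 difference of 0.04 beside -0.02 over all genes. Cnih3, the other brain cornichon, was 2.67-fold lower in CA1 (-1.42 ± 0.12 SE, edgeR adjusted p = 6.53e-18), with 42.2 CPM against 120 CPM in dentate granule nuclei, and Cacng5 was also lower (-1.18 ± 0.25). In CA3 against CA1 pyramidal nuclei 2 were higher and 3 lower, beside 21.6% of all genes. Shisa6, an auxiliary subunit known to hold receptors at the synapse, was higher in CA3 (0.62 ± 0.13), at 1075 CPM on average against 726 in CA1 and 537 in dentate granule nuclei. Shisa7 went the other way (-0.84 ± 0.12). In thalamic nuclei 3 were higher and 3 lower, beside 36.9% of all genes, Cacng4 (gamma-4) being 60.8 CPM there against 4.55 to 7.30 in the principal classes (log2 3.67 ± 0.23). In inhibitory neurons 2 were higher and 5 lower, beside 32.1% of all genes, among them Cacng4 (2.16 ± 0.26) and Shisa6 (-1.47 ± 0.12).

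Among the 10 genes of assembly and editing, 2 passed between CA1 and dentate granule nuclei, 1 in each direction, beside 26.8% of all genes. Adarb1, which encodes the enzyme that edits the Q/R site, was lower in CA1 (-0.57 ± 0.11 SE, edgeR adjusted p = 1.25e-05) and higher in CA3 than in CA1 (0.79 ± 0.11). Olfm3, a secreted olfactomedin, was higher in CA1 than in dentate granule nuclei (1.02 ± 0.13). Thalamic nuclei had 3 higher and 2 lower, beside 36.9% of all genes. Adarb1 reached 574 CPM there against 98.1 to 156 CPM in the principal classes (log2 2.19 ± 0.08, edgeR adjusted p = 2.97e-41).

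Among 14 scaffold and trafficking genes, 11 passed in inhibitory neurons, 4 higher and 7 lower, beside the 32.1% of all genes. Grip1, whose PDZ domains bind the tails of Gria2 and Gria3 printed above, had 3386, 2921, 2626 and 2723 CPM in inhibitory neurons against 157 to 194 CPM in dentate granule nuclei. It was 9.47-fold above the principal classes (log2 3.24 ± 0.08 SE, edgeR adjusted p = 6.65e-54), and its paralog Grip2 was higher too (3.78 ± 0.23). Dlg4, the main scaffold of excitatory synapses, was lower (-0.68 ± 0.10). CA3 pyramidal nuclei had more Grip1 than CA1 (1.58 ± 0.12). In CA1 against dentate granule nuclei 1 scaffold gene was higher and 5 lower, beside 26.8% of all genes, led by Dlg1 (-0.76 ± 0.11).

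Genes whose level over the 9 classes was most like that of a subunit were sought among 6392 genes of at least 50 CPM in their highest class, by Pearson's r of log2(CPM + 10) of class means. The classes share their 4 libraries, and r is given as a description over 9 points. For Gria1 these were Lurap1l (r = 0.96), Gm44151 (0.95) and Pigk (0.95), and for Gria2 they were Speg (0.97), Cacng8 (0.96) and Gabra5 (0.95). For Gria3 they were Myt1l (0.98), Unc13a (0.94) and Glt1d1 (0.94), and for Gria4 Gm13629 (0.97), Cox16 (0.96) and Peg3 (0.96). One TARP thus stood among the genes most like a subunit, Cacng8 beside Gria2. Gria4 and Cacng2 followed each other at r = 0.86.

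Training was compared within each class with edgeR on the summed UMIs of 2 trained and 2 untrained libraries. In bulk sums of this kind, fewer nuclei of a kind within a class and less RNA per nucleus cannot be told apart. Nor can training be told apart from depth in the neuron classes, where the median UMIs were lower in both trained libraries. In CA1 pyramidal nuclei they were 733 and 883.5 in the trained against 1065 and 1195 in the untrained libraries. In astrocytes and oligodendrocytes the medians overlapped. Members passed the count filter in 83 of 90 gene and class pairs, the 7 others being in ependymal barcodes. None of the 83 was called by edgeR or by DESeq2, and the lowest edgeR adjusted p was 0.100. An unadjusted p under 0.05 was found in 7, of which 4 were in astrocytes, 2 in oligodendrocytes and 1 in CA1 pyramidal nuclei. The share of all genes below this limit is not given per class, so nothing is concluded from these 7. The percent of all tested genes called was 0.0158 in dentate granule, 0.00772 in CA1 pyramidal, 0.0189 in CA3 pyramidal, 0.0122 in thalamic, 0.00939 in cortical and 0.00883 in inhibitory nuclei, 0 in oligodendrocytes and ependymal barcodes, and 1.17 in astrocytes. Trained and untrained libraries did not overlap in 30 of the 83 pairs (36.1%), 19 higher and 11 lower in the trained, beside 35.4% of all genes of at least 10 UMIs. In the 6 neuron classes it was 15 of 60 pairs, beside 34.2%: 3 of 10 in dentate granule (37.8% of genes), 2 in CA1 pyramidal (34.1%), 1 in CA3 pyramidal (29.8%), 3 in thalamic (31.1%), 0 in cortical (37.6%) and 6 in inhibitory nuclei (34.3%). In ependymal barcodes it was 0 of 3 (34.7%). For a single gene, an exact permutation of 2 against 2 libraries (two-sided) cannot give a p below 0.333.

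In dentate granule nuclei Gria1 changed by a log2 of 0.05 ± 0.15 (SE) and Gria2 by 0.10 ± 0.15, trained minus untrained, and in both genes the libraries overlapped. Gria3 stood at 852 and 822 CPM in the trained against 747 and 711 in the untrained libraries (0.22 ± 0.15, edgeR adjusted p = 0.773). Gria4 stood at 223 and 189 against 169 and 170 CPM (0.28 ± 0.17, edgeR adjusted p = 0.723). Neither pair of groups overlapped for these last 2 genes, and neither passed the test.

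In CA1 pyramidal nuclei Gria3 had 1141 and 1184 CPM in the trained and 981 and 924 CPM in the untrained libraries. Its log2 difference was 0.31 ± 0.13 (95% interval 0.05 to 0.56, unadjusted p = 0.0343, edgeR adjusted p = 0.996), the smallest unadjusted p of a member in this class. Gria1 (-0.09 ± 0.14), Gria2 (-0.01 ± 0.14) and Gria4 (0.20 ± 0.24) overlapped between groups. In CA3 pyramidal nuclei all 4 subunits overlapped, with log2 differences of -0.08 ± 0.13 for Gria1, -0.003 ± 0.13 for Gria2, 0.08 ± 0.14 for Gria3 and -0.10 ± 0.18 for Gria4. The 95% intervals of Gria1 and Gria2 in these 3 classes lay between -0.36 and 0.38.

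Over all barcodes of at least 600 UMIs none of the 10 members was called, beside 0% of 17455 genes; 1094 genes and 1 member had an unadjusted p under 0.05, and DESeq2 called 6 genes and no member. The member was Gsg1l, at 41.5 and 30.9 CPM in the trained and 53.5 and 45.04 CPM in the untrained libraries (log2 -0.43 ± 0.17 SE, edgeR adjusted p = 0.792). Gria1 (0.20 ± 0.17), Gria2 (0.14 ± 0.13) and Gria4 (-0.02 ± 0.13) overlapped between groups, and Gria3 was 847 and 899 against 811 and 740 CPM (0.21 ± 0.13). These sums also move with the share of each class in a library.

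**Figure D4:**
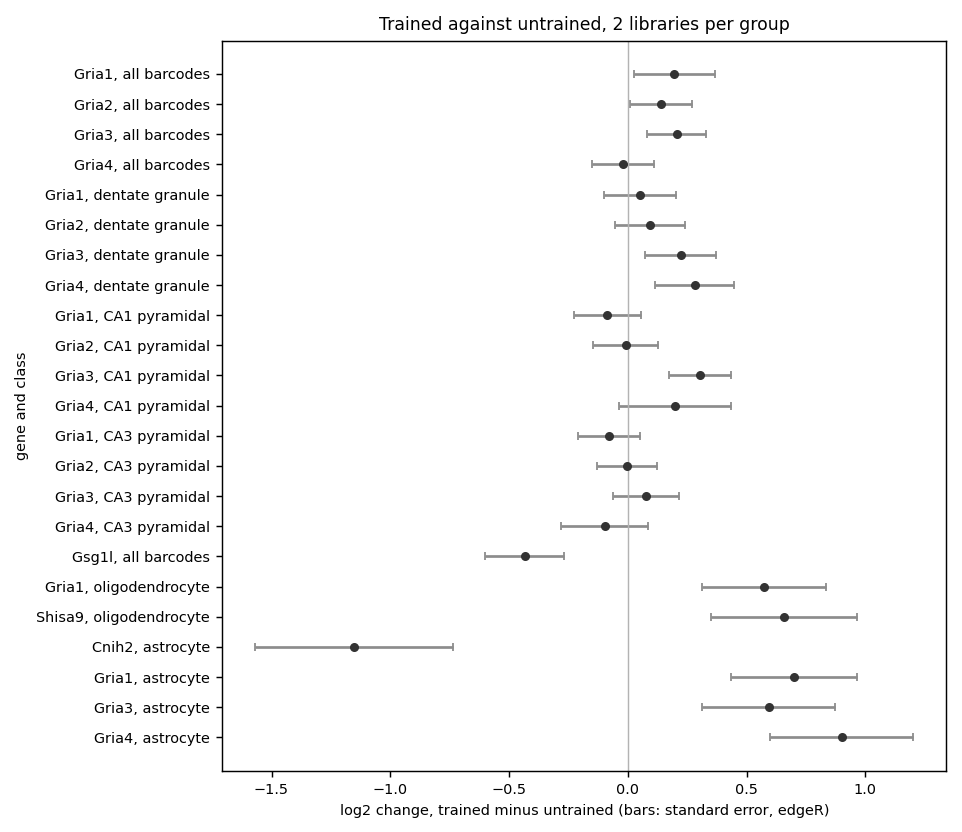
Log2 change, trained minus untrained, with its standard error on the horizontal axis, for the 4 subunits in all barcodes and in the principal classes and for other genes with an unadjusted p under 0.05. No pair passed the adjusted test. The pairs farthest from 0 are Cnih2 (-1.15, from few UMIs) and Gria4 (0.90) in astrocytes.

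Both glial classes held the other pairs of small p. In astrocytes Gria4 had 348 and 282 CPM in the trained and 157 and 170 CPM in the untrained libraries (log2 0.90 ± 0.30 SE, edgeR adjusted p = 0.100), and Gria1 had 1505 and 1367 against 701 and 1061 CPM (0.70 ± 0.27, edgeR adjusted p = 0.149). Gria3 had 634 and 535 against 352 and 410 CPM (0.59 ± 0.28, edgeR adjusted p = 0.276). Cnih2 was 63.4 and 47.0 against 123 and 103 CPM (-1.15 ± 0.42, edgeR adjusted p = 0.130), from few UMIs in the trained libraries, whose astrocytes held 63136 and 276496 UMIs of all genes. The groups did not overlap in any of these 4, nor in 8 of the 10 members in all, beside 41.7% of genes in this class. With the replicate number as a block, Gria1 and Gria4 were called (edgeR adjusted p = 0.0389 and 0.0481), among 189 genes. With barcodes thinned to 600 UMIs, Gria4 was the only member called (edgeR adjusted p = 0.0272), among 215 genes. Without Untrained replicate 2 the log2 changes were 1.01 for Gria1, 0.93 for Gria4 and -1.26 for Cnih2. Of the 6 neuronal marker sets, 4 were higher in both trained libraries of this class: the CA1 markers summed to 1425 and 1316 CPM in the trained and 837 and 885 CPM in the untrained libraries, the 10 dentate granule markers to 2724 and 2506 against 1670 and 2184 CPM, the CA3 markers to 903 and 517 against 514 and 465 CPM and the cortical markers to 950.3 and 929 against 672 and 723 CPM. Among the CA1 markers, Galntl6 (713 and 633 against 252 and 276 CPM) and Pex5l (491 and 445 against 283 and 325 CPM) were higher in both trained libraries. Fibcd1 (15.8 and 39.8 against 44.0 and 46.5 CPM) and Spink8 (31.7 and 14.5 against 66.1 and 54.2 CPM) were lower in both. Man1a, Wfs1 and Mpped1 overlapped. In CA1 pyramidal nuclei themselves Fibcd1 stood at only 32.9 to 64.2 CPM, Spink8 at 36.0 to 49.0 and Wfs1 at 35.8 to 51.8. Those levels were close to the astrocyte ones. Only 4 of the 7 CA1 markers were above a log2 of 0.5 in the CA1 class against the other barcodes. The markers of the 2 classes highest in Gria4 overlapped between groups. Those of thalamic nuclei summed to 1093 and 684 against 706 and 857 CPM. Those of inhibitory neurons summed to 1568 and 1201 against 1159 and 1316 CPM. Their part in the result was not tested.

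In oligodendrocytes Gria1 had 1401 and 1325 CPM in the trained and 699 and 1139 CPM in the untrained libraries (log2 0.57 ± 0.26 SE, edgeR adjusted p = 0.408). Shisa9 had 290 and 252 against 136 and 206 CPM (0.66 ± 0.31, edgeR adjusted p = 0.430). Neither gene overlapped between groups, and 7 of the 10 members did not, beside 38.3% of genes in the class. When Untrained replicate 2 was left out, the log2 changes were 0.97 for Gria1 and 0.97 for Shisa9. The CA1 markers summed to 2545 and 2154 CPM in the trained and 1557 and 1909 CPM in the untrained libraries. The CA3 markers (564 and 486 against 391 and 432 CPM) and cortical markers (1020 and 1057 against 731 and 691 CPM) did not overlap either. Among the single CA1 markers, Galntl6, Pex5l and Mpped1 were higher in both trained libraries. Spink8 was lower in both, and Man1a, Fibcd1 and Wfs1 overlapped. Spink8, Fibcd1 and Wfs1 were low in CA1 pyramidal nuclei too, as given above. The dentate granule markers (2620 and 2489 against 1895 and 2547 CPM), thalamic markers (821 and 725 against 592 and 864 CPM) and inhibitory markers (2015 and 1875 against 1506 and 1917 CPM) overlapped. Their part in the result was not tested. In the low-UMI barcodes Gria1 was 872 and 753 against 568 and 767 CPM, which overlap.

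**Figure D5:**
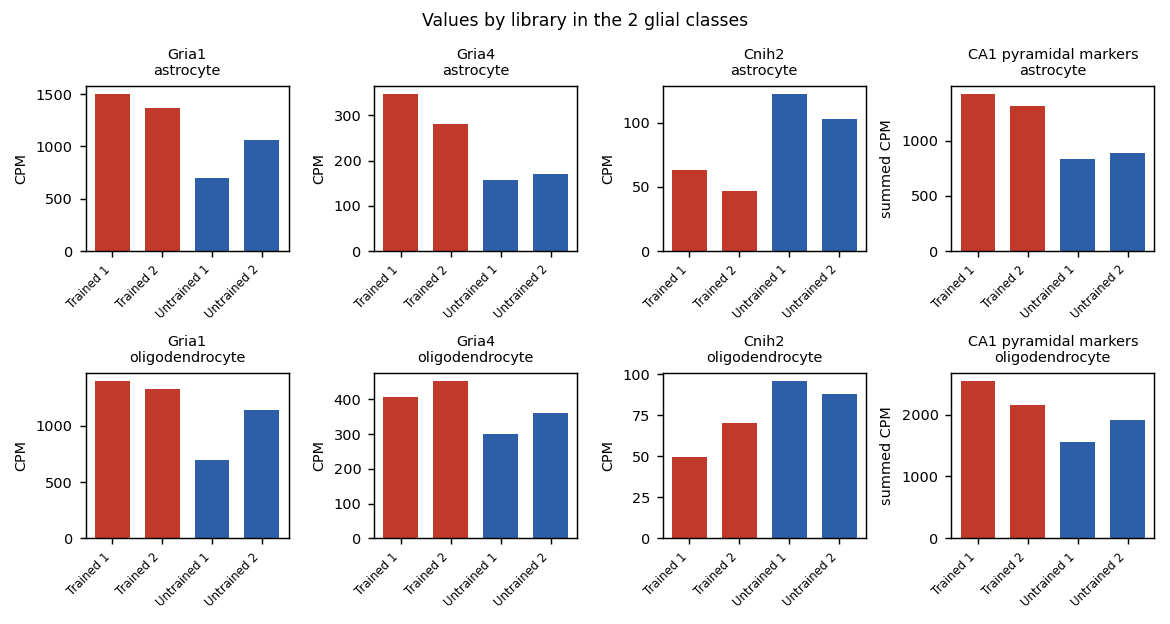
CPM of Gria1, Gria4 and Cnih2 and the summed CPM of the CA1 pyramidal markers on the vertical axes, by library on the horizontal axes, in astrocytes (top) and oligodendrocytes (bottom); trained libraries are red and untrained blue. In astrocytes Gria1, Gria4 and the sum of the CA1 markers are higher in both trained libraries and Cnih2 is lower. Of the single CA1 markers, only Galntl6 and Pex5l were higher in both.

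Of the other lists, none of the auxiliary subunits or of the assembly and editing genes was called for training in any class or in all barcodes. Among the scaffolds 1 was called, Dlg2 in astrocytes (log2 1.01 ± 0.26 SE, edgeR adjusted p = 0.0292). It had 2803 and 2752 CPM in the trained and 1236 and 1518 CPM in the untrained libraries. As sums, 4 of the 6 neuronal marker sets were higher in both trained libraries of this class, that of CA3 narrowly (517 against 514 CPM). Dlg2 encodes PSD-93, a synaptic scaffold that is abundant in the neurons here (4521 to 5090 CPM in principal and cortical nuclei). The part of neuronal RNA in the difference of Dlg2 was not tested. Astrocytes had 83 called genes, but 0 with a stricter class rule.

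Whether the effect of training differed between classes was asked in 1 test per gene over the 9 classes, added after the data were seen, which called 54 of 11366 genes (0.475%). No member was among them; Gria1 came closest (edgeR adjusted p = 0.306). A difference between glia and neurons in the effect of training was therefore not shown for these 10 genes.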

How the data were processed

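Each deposited matrix holds whole-number UMI counts of genes in barcodes. The file headers name Cell Ranger 7.0.0, whereas the submitters' processing notes name Cell Ranger 8, STAR and GRCm39. No genome coordinates are used. The members, lists and comparisons were chosen with earlier results of these data known.

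Counts from barcodes of at least 600 UMIs were used. Of 96 markers of 12 classes, barcodes with at least 3 UMIs and a Poisson p under 0.001 for exactly 1 class were seeds. Class profiles over 14778 other genes (members and lists left out) then assigned each barcode by log-likelihood, with a margin of 5 over the next class and over the library mean. The 976 barcodes passing for several classes were left unassigned; no doublet caller was run. This rule was settled after the data were seen: marker gates alone, in several settings, left most barcodes unassigned, and repeated rounds let rare classes drift. The limit for describing a class (30 barcodes per library, under 30% of them with a margin of 5 to 15) was set after the members' levels had been seen, before any test was run.

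Sums were fitted in R 4.3.3 with edgeR 4.0.16 (filterByExpr, TMM, quasi-likelihood F test, adjusted p under 0.05); the standard error is the log2 change over the square root of F, and 95% intervals are 1.96 standard errors. Fits were tested on simulated data. Between classes the library was a block. Alternatives were DESeq2 1.42.0, its size factors, no count filter, a replicate block, each library left out, at least 1000 UMIs, thinning to 600 UMIs, Leiden clusters and a stricter rule with a margin of 15. The contrasts of thalamic and cortical classes, the test of training by class and the fit on low-UMI barcodes were added after the data were seen. Members are always named; of the other lists, up to 3 genes of smallest p per comparison.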

Additional observations from a re-analysis of the deposited data

Results flagged for a closer look

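The effect of training differed between the 9 classes for 2 genes of the other lists, by the interaction of training and class in edgeR, a test added after the data were seen. Shisa6, which encodes an auxiliary subunit, had an adjusted p of 0.000817. Its widest difference was in cortical nuclei, at 332 and 214 CPM in the trained and 93.4 and 113 CPM in the untrained libraries. This is the least certain class, with 184 barcodes in Trained replicate 1. In it the CA3 markers summed to 981 and 708 against 512 and 651 CPM. The dentate granule markers summed to 912 and 744 against 590 and 572 CPM. The CA1, thalamic, inhibitory and cortical markers overlapped between groups. Their part in the result was not tested. Dlg2, the PSD-93 gene, had an adjusted p of 0.0109, with its widest difference in astrocytes. In edgeR neither passed with barcodes of at least 1000 UMIs, where 6 classes remained, nor without Untrained replicate 1 (adjusted p = 0.111 for Shisa6 and 0.941 for Dlg2). Dlg2 was also lost without Trained replicate 1 (edgeR adjusted p = 0.0546), Trained replicate 2 (0.131) and Untrained replicate 2 (0.0915). The cause was not tested.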

How the results depend on the processing

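Of 55 differences of members called between classes, 40 were called under every alternative and 15 were lost under at least 1. Sign changes touched 37 of 930 values between classes and 122 of 1035 training values, and 0 of them belonged to a called value; after the alternatives had been seen, single-gene values were limited to those printed here. For training, genes called over all barcodes were 6 by DESeq2, 159 with no count filter and 1 with at least 1000 UMIs. With no count filter there were 0 in dentate granule, 0 in CA1 pyramidal, 16 in cortical, 6 in inhibitory, 2 in oligodendrocyte and 26 in astrocyte barcodes. DESeq2 called 2 in cortical and 3 in oligodendrocyte barcodes. With at least 1000 UMIs there were 20 in dentate granule and 1 in CA3 pyramidal nuclei. Thinning to 600 UMIs gave 2 in CA1, 1 in CA3, 1 in oligodendrocytes and 215 in astrocytes, with 1 member. Leiden clusters gave 1 in dentate granule, 3 in inhibitory, 1 in oligodendrocyte and 5 in astrocyte barcodes, and the stricter rule 7 in dentate granule and 0 in astrocyte barcodes. The training-by-class test called 8 genes with at least 1000 UMIs and 84 after thinning.

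The labels give both groups the same replicate numbers, which do not name a shared animal or day, and deviations of Trained and Untrained replicate 1 correlated at r = 0.06 over 13083 genes. With the replicate block, 11 genes were called in dentate granule, 5 in CA1, 5 in thalamic, 9 in inhibitory and 189 in astrocyte barcodes, the last with 2 members.

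Between classes, dropping the library block left 4 members in CA1 and 4 in CA3 against dentate granule nuclei, with 2591 genes in the latter and 1593 in CA3 against CA1; thinning gave 2608 and 1546. Oligodendrocytes had 2042 genes with at least 1000 UMIs and astrocytes 2648 with Leiden clusters.

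Small training changes turned sign: Gria4 over all barcodes (0.0474 thinned), Gria2 in dentate granule (-0.00602) and CA1 nuclei (0.0398) with at least 1000 UMIs, Gria4 in CA3 with Leiden clusters (0.0220), and Gria2 in CA3 by DESeq2 (0.0018), with its size factors (0.0020), with at least 1000 UMIs (0.0846), thinned (0.0136) and under the stricter rule (0.00769). The causes were not tested.

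Leaving out 1 library at a time, log2 changes ranged over all barcodes from -0.0304 to 0.46 for Gria1 and -0.13 to 0.0825 for Gria4. In dentate granule nuclei they ranged from -0.10 to 0.23 for Gria1 and -0.0144 to 0.19 for Gria2. In CA1 they ranged from -0.25 to 0.10 for Gria1, -0.17 to 0.13 for Gria2 and -0.21 to 0.69 for Gria4. In CA3 they ranged from -0.24 to 0.10 for Gria1, -0.18 to 0.15 for Gria2 and -0.26 to 0.10 for Gria4. Genes called ranged from 1 to 189 over all barcodes, 0 to 300 in dentate granule, 0 to 5 in CA1, 1 to 7 in CA3, 1 to 6 in thalamic, 0 to 22 in cortical, 1 to 58 in inhibitory, 0 to 497 in oligodendrocyte, 0 to 733 in astrocyte and 0 to 4 in ependymal barcodes, and 20 to 67 in the training-by-class test. Members called ranged from 0 to 2 in oligodendrocytes and 0 to 3 in astrocytes. Between classes, members called ranged from 4 to 7 in CA1 and in CA3 against dentate granule nuclei, 4 to 5 in CA3 against CA1, and 7 to 8 in thalamic nuclei. Genes called ranged from 1679 to 2656 in CA3 against CA1 and 3016 to 5114 in astrocytes. In oligodendrocytes they ranged from 2430 to 3854.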
